A study of Mus musculus with 2208 samples.

Results

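Microglia from the hippocampus of CKp25 mice were compared with microglia of CK mice 2 weeks after the p25 transgene had been switched on. In CKp25 mice the CaMKII promoter, active in forebrain neurons and not in microglia, drives p25, a shortened form of the normal activator of Cdk5, and these neurons then degenerate. CK mice are control littermates, which in this line carry the driver and no p25. Both groups held 3 mice, all 3 months and 2 weeks old, and each mouse gave 96 wells. Single cells carrying CD11b and CD45, surface proteins of microglia and of other myeloid cells, were sorted from digested tissue, and each well became its own Smart-seq2 library, a full-length transcript method. The first well of each mouse was left out and wells were kept if 1000 genes or more reached an FPKM of 1. FPKM counts sequenced fragments relative to transcript length and to the size of the library, per kilobase and per 1000000 fragments. This left 255 CKp25 cells (93, 95 and 67 in mice 1, 2 and 3) and 281 CK cells (95, 95 and 91), which are 536 of the 2003 cells kept from 2208 wells of the whole series. Mice of the same genotypes at 0 weeks (3 months old), 1 week (3 months and 1 week old) and 6 weeks (4 months and 2 weeks old) were used for comparison over time, with 3 mice per group and 4 CKp25 mice at 6 weeks.

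Microglia are the resident macrophages of the brain. In the healthy brain they express a homeostatic set of genes, such as the purine receptor P2ry12 and the chemokine receptor Cx3cr1, which serve the surveillance of neurons and synapses and depend on TGF-beta and Csf1 receptor signals. Near dying neurons or plaques they lose part of this set and express phagocytic receptors, lipid carriers and lysosomal genes. Type I interferons act through the receptor Ifnar and transcription factors such as Stat2 and Irf9, which bind the interferon-stimulated response element (ISRE) and switch on antiviral effectors and MHC class I presentation.

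A level below is the mean FPKM over the cells of a mouse, given for mice 1, 2 and 3 in order. For tests, log2(FPKM + 1) was averaged over the cells of each mouse. A difference is CKp25 minus CK at 2 weeks in that mean (n = 3 mice per group), followed by ± and the standard error that limma gives. A gene rose or fell when its adjusted p was under 0.05, adjusted over all 9162 genes tested. Groups overlap, or do not, by that mean. The mean FPKM can overlap where it does not. No source used here says how plates were assigned to mice, so p-values measure the spread between mice and part of it may be technical. The aligner, the annotation and whether strand was used are not given in the sources used here, so overlapping and antisense genes cannot be told apart.

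The median number of genes per cell was 2523, 2953 and 2992 in the CKp25 mice, against 2465, 2900 and 2346 in the CK mice. CK mouse 2 therefore stood above the other CK mice, and its median over all tested genes lay 0.16 above the CK mean, against -0.06 and -0.11 in CK mice 1 and 3. The sorting markers Itgam, which encodes CD11b, and Ptprc, which encodes CD45, differed by -0.57 ± 0.47 (adjusted p = 0.556) and 0.64 ± 0.49 (adjusted p = 0.521). Cells with 3 or more markers of another cell type numbered 2, 5 and 2 in the CKp25 mice, against 1, 2 and 4 in the CK mice. The neutrophil genes S100a8, S100a9, Retnlg and Camp, the T cell genes Cd3e and Cd3g, the monocyte gene Chil3 and the endothelial gene Cldn5 were found in no cell of either group. Cdk5r1, the gene p25 derives from, reached 1.13, 2.03 and 1.82 FPKM in the CKp25 mice, against 7.46, 6.40 and 5.57 FPKM in the CK mice. It fell by 0.85 ± 0.23 on the log2 scale (adjusted p = 0.0148). Its transgene is driven in neurons, so this level in sorted microglia does not check the genotype labels. Cdk5r1 did not pass without CKp25 mouse 1 or CK mouse 1 (adjusted p up to 0.0799), with the log2 of the mean FPKM, nor in 3 further settings.

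Of the 9162 genes, 550 rose (6.00%) and 204 fell (2.23%) in CKp25 microglia. The CKp25 mice all lay above the CK mice in 1208 genes (13.2%) and all below them in 1025 genes (11.2%). Counts in the lists below are to be read beside these shares, and 1 call in a short list says little about the list. Of the genes that rose, 128 rose by more than 2 on the log2 scale, and 29 of those that fell did so by more than 2. The median difference over all tested genes was -0.0015. The share of calls that were higher was 72.9%, and it moved to 60.4% after quantile normalization (502 higher, 329 lower), 52.2% with genes per cell as a covariate (489 and 447) and 52.7% with the log2 of the mean FPKM (174 and 156). The last of these moved the median of all genes by -0.35, and centring each mouse on its median gene, an alternative added after seeing the data, gave 80.3% (400 and 98). Without CK mouse 1 or CK mouse 3, 349 and 361 genes rose. Without CKp25 mouse 1, CKp25 mouse 3, CK mouse 1 or CK mouse 2, 106, 94, 128 and 113 genes fell. Before induction, at 0 weeks, 0 genes passed (0%) and 107 genes (1.17%) had an unadjusted p under 0.05 by limma.

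The 15 genes with the largest rise without overlap between the mice were, in order, Ifi27l2a, Lgals3bp, Ifitm3, Cst7, Cd52, Axl, Ccl4, H2-D1, Rtp4, Bst2, H2-K1, Ccl3, Lyz2, Irf7 and Clec7a, between 7.36 and 4.12 on the log2 scale. The 10 with the largest fall included Gpr165, P2ry13, Slc2a5, P2ry12, Gpr56, Ecscr, Crybb1, Cd164 and the predicted gene Gm3002, whose copies make it uncertain, and lay between -3.66 and -2.54. Ifi27l2a, an interferon-induced gene of mitochondria, was at 729, 713 and 991 FPKM in the CKp25 mice, against 6.91, 17 and 6.51 FPKM in the CK mice. Each CKp25 mouse lay far above each CK mouse, and the gene rose by 7.36 ± 0.72 (adjusted p = 1.64e-07). The orphan receptor gene Gpr165 was at 0.929, 3.19 and 0.0455 FPKM in the CKp25 mice, against 100.5, 23.1 and 78.7 FPKM in the CK mice. It fell by 3.66 ± 0.74 on that scale (adjusted p = 0.00224), with CK mouse 2 the lowest of the CK mice. Ccl4 did not pass with the log2 of the mean FPKM.

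**Figure D1:**
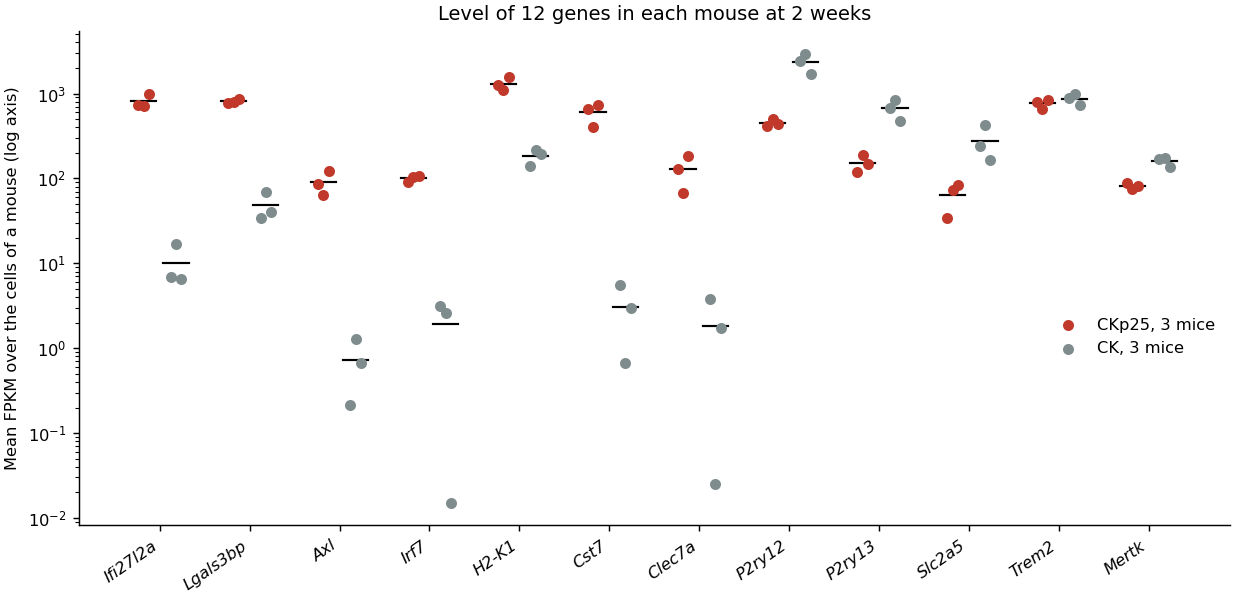
Mean FPKM over the cells of a mouse (y axis, log scale) for 12 genes (x axis), with 1 point per mouse (CKp25 red, CK gray) and a bar for the mean of 3 mice. Ifi27l2a lies at 713 to 991 FPKM in the CKp25 mice and at 6.51 to 17 FPKM in the CK mice, P2ry12 lies lower in the CKp25 mice, and Trem2 overlaps.

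Interferon transcripts were found in few or no cells, and of the receptor genes 1 fell. Ifnb1 was found in 0%, 1.05% and 1.49% of the cells of the CKp25 mice and in 0% of CK cells, Ifna2 in 1.05% of the cells of CK mouse 1 alone, and Ifna4 and Ifng in none. Ifnar1, of the type I receptor, was at 13.4, 9.53 and 10.1 FPKM in the CKp25 mice, against 15.1, 16.8 and 9.80 FPKM in the CK mice, and overlapped (difference -0.23 ± 0.40, adjusted p = 0.812). Ifnar2 differed by 1.18 ± 0.76 (adjusted p = 0.426) and Ifngr2 by 0.76 ± 0.59 (adjusted p = 0.526). Ifngr1, which binds interferon gamma, was the 1 gene of the 4 tested that passed, at 232, 361 and 259 FPKM in the CKp25 mice, against 773, 719 and 575 FPKM in the CK mice. It did not overlap and fell by 1.64 ± 0.51 on the log2 scale (adjusted p = 0.0353). Ifngr1 did not pass without CKp25 mouse 1 or 3 or CK mouse 1 or 2 (adjusted p up to 0.169), nor in 4 further settings.

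Of 10 tested transcription factors of the interferon response, 4 rose and 0 fell, with a median difference of 0.63. Among them were Irf7, which amplifies interferon production, and Stat2 and Irf9, which act at the ISRE. Irf7 was at 91.5, 103 and 107 FPKM in the CKp25 mice, against 3.13, 2.63 and 0 FPKM in the CK mice. It rose by 4.35 ± 0.44 (adjusted p = 1.02e-07). It was found in 64.5, 70.5 and 67.2% of the cells of the CKp25 mice, against 1.05, 3.16 and 0% of those of the CK mice. Of the 2-week mice, the CKp25 mice alone brought Irf7 to the 10% of cells asked of a tested gene. Stat2 was at 32.0, 23.2 and 39.9 FPKM in the CKp25 mice, against 6.23, 9.41 and 1.72 FPKM in the CK mice. Irf7 and Stat2 did not overlap between the groups. The rises were 2.28 ± 0.30 for Stat2 and 1.35 ± 0.35 for Irf9 (adjusted p = 3.29e-07 and 0.00885). The constitutive factors Irf3, Irf5 and Irf8 differed by 0.17 ± 0.28, -0.31 ± 0.50 and 0.38 ± 0.50, and Irf1, an early target of interferon gamma, by 0.89 ± 0.36 (adjusted p = 0.8, 0.791, 0.733 and 0.13). Irf9 did not pass without CKp25 mouse 2 or CK mouse 3 (adjusted p up to 0.0858), with the log2 of the mean FPKM, nor with the log2 of the mean FPKM centred on the median gene.

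Of 43 antiviral effectors, all of them tested, 38 rose and 0 fell, and the median difference was 1.54. Without overlap 41 lay higher, as 13.2% of all tested genes did. These counts include members, such as Ifitm3, that at 2 weeks reached the 10% of cells asked of a tested gene in the CKp25 mice alone. By mouse, the median over the list lay 1.62, 1.42 and 1.86 above the CK mean in the CKp25 mice, against -0.01, 0.03 and -0.04 in the CK mice. Ifitm3, a membrane protein that blocks entry of viruses, was at 438, 385 and 565 FPKM in the CKp25 mice, against 16.5, 5.07 and 12 FPKM in the CK mice, and was found in 75.3, 71.6 and 82.1% of the cells of CKp25 mice, against 3.16, 6.32 and 5.49% in CK mice. Rtp4, a chaperone of receptors, was at 139, 119.9 and 169 FPKM in the CKp25 mice, against 14.3, 6.80 and 6.25 FPKM in the CK mice. Bst2, which tethers budding virions, was at 178, 193 and 446 FPKM in the CKp25 mice, against 39.5, 48.7 and 17.7 FPKM in the CK mice. These genes rose by 6.21 ± 0.57, 4.94 ± 0.46 and 4.74 ± 0.66 (adjusted p = 8.74e-09, 2.78e-09 and 9.28e-06), without overlap. Slfn2, a schlafen gene of immune cells, rose by 3.65 ± 0.33 and Oasl2, of the oligoadenylate synthase family, by 3.35 ± 0.27. Within the Oas family, Oas1a rose by 2.85 ± 0.24, Oas2 by 2.41 ± 0.31 and Oas3 by 0.92 ± 0.17. Oas1a has close copies in its gene cluster, so its value is uncertain.

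Several widely used markers of the interferon response were found in a minority of the CKp25 cells. Isg15, a ubiquitin-like modifier, was found in 32.3, 22.1 and 35.8% of the cells of the CKp25 mice, against 9.47, 9.47 and 2.2% in the CK mice. Mx1, a GTPase against influenza viruses, was found in 34.4, 28.4 and 38.8% of the cells of the CKp25 mice, against 1.05, 5.26 and 2.2% in the CK mice. Ifit1, which binds viral RNA, was found in 28.0, 17.9 and 25.4% of the cells of the CKp25 mice, against 2.11, 1.05 and 1.10% in the CK mice. Rsad2, the antiviral enzyme viperin, was found in 24.7, 23.2 and 32.8% of the cells of the CKp25 mice, against 0, 2.11 and 4.40% in the CK mice. Ly6e, a GPI-anchored surface protein, at 607, 808 and 687 FPKM in the CKp25 mice, against 161, 391 and 196 FPKM in the CK mice, was found in 100% of CKp25 cells and in 87.4, 98.9 and 95.6% of the cells of the CK mice. The genes rose by 1.49 ± 0.25 (Isg15), 1.77 ± 0.19 (Mx1), 1.37 ± 0.15 (Ifit1), 1.42 ± 0.15 (Rsad2) and 2.11 ± 0.56 (Ly6e), all without overlap. Isg15, Mx1, Ifit1 and Rsad2 reached the 10% of cells asked of a tested gene, at 2 weeks, in the CKp25 mice alone. The 5 effectors that did not pass were Ifitm2, Eif2ak2, Slfn5, Uba7 and Ifi44, with adjusted p = 0.0595, 0.0666, 0.146, 0.0782 and 0.187. Ifi44 differed between mice of 1 group: it was at 76.0, 5.76 and 8.44 FPKM in the CKp25 mice, against 0, 0 and 2.21 FPKM in the CK mice, and was found in 71.0, 8.42 and 5.97% of the cells of CKp25 mice, against 0, 0 and 11% in CK mice. Ly6e did not pass without CK mouse 1 (adjusted p up to 0.138).

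Among 12 tested nucleic acid sensors, 5 rose and 1 fell, with a median difference of 0.39. The RNA sensors Ddx58 (RIG-I), Ifih1 (MDA5) and Dhx58 rose by 1.22 ± 0.23, 1.29 ± 0.22 and 2.2 ± 0.28 (adjusted p = 0.000196, 5.23e-05 and 1.5e-07). Zbp1, a sensor of Z-form nucleic acid, was at 59.8, 32.0 and 50.3 FPKM in the CKp25 mice, against 0.426, 0.104 and 0 FPKM in the CK mice. Ifi204 was at 40.3, 36.4 and 56.2 FPKM in the CKp25 mice, against 0.113, 0.199 and 2.65 FPKM in the CK mice. They rose by 2.56 ± 0.30 and 3.22 ± 0.32 (adjusted p = 3.83e-07 and 3.06e-09). Tmem173, the adaptor STING that acts after DNA sensing, moved the other way: it was at 51.6, 88.6 and 59.2 FPKM in the CKp25 mice, against 136, 246 and 109.5 FPKM in the CK mice, did not overlap and fell by 1.67 ± 0.48 on the log2 scale (adjusted p = 0.02). Mb21d1, the DNA sensor cGAS, differed by 0.54 ± 0.23 and Mavs, the adaptor of the RNA sensors, by -0.00 ± 0.30 (adjusted p = 0.176 and 0.998). Tmem173 did not pass without CKp25 mouse 1 or 3 or CK mouse 1 or 2 (adjusted p up to 0.106). Ddx58 did not pass with the log2 of the mean FPKM. Tmem173 did not pass in 2 further settings.

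Of 6 tested feedback inhibitors of the pathway, 3 rose. Usp18, which removes Isg15 and blocks Ifnar2, was at 62.9, 63.5 and 102 FPKM in the CKp25 mice, against 0.219, 5.69 and 0.534 FPKM in the CK mice. Trex1, an exonuclease that clears cytosolic DNA, was at 308, 246 and 295 FPKM in the CKp25 mice, against 60.1, 84.8 and 58.2 FPKM in the CK mice. Usp18 and Trex1 rose by 2.85 ± 0.36 and 3.88 ± 0.49, and the RNA-editing enzyme gene Adar by 1.65 ± 0.32 (adjusted p = 1.17e-06, 1.21e-07 and 0.000301), without overlap. Socs3 and Ptpn6 differed by 0.39 ± 0.61 and 0.43 ± 0.52 (adjusted p = 0.783 and 0.706). Of 9 tested guanylate-binding and immunity-related GTPases, which act against pathogens inside cells and many of which interferon gamma induces, 5 rose and 1 fell. Irgm1 was at 79.5, 59.1 and 96.2 FPKM in the CKp25 mice, against 35.5, 25.5 and 14.2 FPKM in the CK mice. It rose by 2.45 ± 0.39 (adjusted p = 1.2e-05). Gbp2, Gbp6, Igtp and Iigp1 rose by 0.71 ± 0.12, 0.52 ± 0.13, 0.99 ± 0.30 and 0.71 ± 0.21, and Gbp7 fell by 0.89 ± 0.26 on the log2 scale. All 6 belong to families with close copies and are uncertain. Of the 5 that rose, 2 passed without CKp25 mouse 3, and 3 without CKp25 mouse 1, CK mouse 1 or CK mouse 3. Gbp6 did not pass without CKp25 mouse 3 (adjusted p up to 0.0651), Gbp7 without CKp25 mouse 1 or 3 or CK mouse 1 or 2 (adjusted p up to 0.136), Igtp without CKp25 mouse 1 or 3 or CK mouse 1 or 3 (adjusted p up to 0.251) and Iigp1 in 6 of 25 omissions (adjusted p up to 0.215). Adar, Irgm1, Gbp2, Gbp7 and Igtp did not pass with the log2 of the mean FPKM. Gbp2 did not pass with the log2 of the mean FPKM centred on the median gene, Gbp6 without the trend and robust options, Gbp7 in 2 further settings, Igtp in 5 further settings and Iigp1 in 4 further settings.

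Promoter sequences were read from RefSeq on the build GRCm38.p6, from 250 bases before to 50 bases after each gene's start, and were matched by symbol for 6996 of the 9162 tested genes. The ISRE core was searched on both strands as 2 copies of GAAA set 2 bases apart, GAAANNGAAA, which also reads TTTCNNTTTC on the other strand. It was present in 3.44% of all 32851 promoters and in 3.87% of those of the tested genes. It was present in 47 of 401 promoters of genes that rose (11.7%), in 17 of 89 for genes that rose by more than 2 (19.1%) and in 4 of 153 for genes that fell (2.61%). Of the antiviral effectors with a promoter, 16 of 34 held it, as did 9 of 10 guanylate-binding and immunity-related GTPases, 4 of 15 MHC class I presentation genes, 1 of 17 phagocytic receptor genes and 0 of 20 homeostatic genes. Over the interferon lists the ISRE core was in 22 of 49 promoters of genes that rose and in 7 of 24 of genes that did not pass. The interferon-gamma activated site TTCNNNGAA, which can overlap the ISRE core, was in 8.23% of promoters of genes that rose and in 8.30% of all promoters. By list it was in 8 of 34 antiviral effectors, 6 of 10 of these GTPases and 3 of 9 interferon transcription factors. It was in 1 of 15 MHC class I presentation genes, 0 of 7 nucleic acid sensors and 2 of 20 homeostatic genes. The PU.1 site GAGGAAGT, of a factor that sets macrophage identity, was in 7.23% of promoters of genes that rose (29 of 401), in 7.84% of those of genes that fell (12 of 153), in 4.16% of those of tested genes and in 3.20% of all promoters. A match gives these letters in this window and is no evidence of binding.

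The promoters below are those of the 6 interferon-list genes with the largest rise among 22 that rose and held the core, with the core in capitals, and that of P2ry12, which fell and held none. They show how often and where the core lies. In Ifitm3 it begins at bases 3 and 20, counted from the start as base 1. It begins 130 and 124 bases before the start in Bst2, 36 before it in Trim30a, 20 and 14 before it in Oas1a, 30 and 24 before it in Irgm1, and 124 before it in H2-T23. All 7 genes lie on the minus strand, at chr7:141010695-141010994 (Ifitm3), chr8:71537423-71537722 (Bst2), chr7:104465144-104465443 (Trim30a), chr5:120907476-120907775 (Oas1a), chr11:48871371-48871670 (Irgm1), chr17:36032652-36032951 (H2-T23) and chr3:59262936-59263235 (P2ry12), and are written 5′ to 3′ on the gene's strand. In Trim30a and H2-T23 the core reads on the other strand. Trim30a, of a family of ubiquitin ligases, rose by 3.12 ± 0.45 (adjusted p = 2.01e-06).
Ifitm3: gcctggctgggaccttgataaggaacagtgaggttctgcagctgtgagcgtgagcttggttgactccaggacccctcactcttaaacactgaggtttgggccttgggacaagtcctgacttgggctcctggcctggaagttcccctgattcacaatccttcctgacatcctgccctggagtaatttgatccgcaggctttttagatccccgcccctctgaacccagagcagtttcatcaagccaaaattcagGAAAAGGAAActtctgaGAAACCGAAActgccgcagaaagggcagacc
Bst2: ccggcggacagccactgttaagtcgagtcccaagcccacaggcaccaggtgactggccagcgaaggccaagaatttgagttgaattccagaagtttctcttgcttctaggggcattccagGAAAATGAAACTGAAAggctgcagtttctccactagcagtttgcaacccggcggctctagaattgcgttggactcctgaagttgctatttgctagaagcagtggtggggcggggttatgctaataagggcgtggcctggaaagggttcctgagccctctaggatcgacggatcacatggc
Trim30a: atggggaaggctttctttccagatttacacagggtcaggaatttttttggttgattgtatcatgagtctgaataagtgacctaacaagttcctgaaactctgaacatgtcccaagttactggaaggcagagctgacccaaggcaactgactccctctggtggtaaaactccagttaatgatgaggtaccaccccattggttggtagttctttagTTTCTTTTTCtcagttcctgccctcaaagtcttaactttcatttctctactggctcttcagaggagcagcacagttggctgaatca
Oas1a: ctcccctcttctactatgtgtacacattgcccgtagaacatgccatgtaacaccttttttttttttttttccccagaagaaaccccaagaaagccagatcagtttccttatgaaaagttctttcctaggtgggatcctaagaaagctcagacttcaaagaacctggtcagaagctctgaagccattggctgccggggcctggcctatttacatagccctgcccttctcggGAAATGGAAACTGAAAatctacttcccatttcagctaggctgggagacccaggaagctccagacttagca
Irgm1: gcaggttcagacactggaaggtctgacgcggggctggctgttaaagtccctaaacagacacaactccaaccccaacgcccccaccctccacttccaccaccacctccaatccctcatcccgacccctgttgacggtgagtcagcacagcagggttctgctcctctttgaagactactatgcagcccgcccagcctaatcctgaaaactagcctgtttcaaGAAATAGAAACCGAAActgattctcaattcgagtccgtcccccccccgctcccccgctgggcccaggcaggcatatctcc
H2-T23: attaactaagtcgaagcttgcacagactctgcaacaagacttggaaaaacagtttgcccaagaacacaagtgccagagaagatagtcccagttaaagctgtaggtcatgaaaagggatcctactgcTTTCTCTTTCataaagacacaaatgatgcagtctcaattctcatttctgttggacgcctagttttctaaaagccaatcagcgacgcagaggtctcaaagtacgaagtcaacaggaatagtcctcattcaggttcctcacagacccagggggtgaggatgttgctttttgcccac
P2ry12: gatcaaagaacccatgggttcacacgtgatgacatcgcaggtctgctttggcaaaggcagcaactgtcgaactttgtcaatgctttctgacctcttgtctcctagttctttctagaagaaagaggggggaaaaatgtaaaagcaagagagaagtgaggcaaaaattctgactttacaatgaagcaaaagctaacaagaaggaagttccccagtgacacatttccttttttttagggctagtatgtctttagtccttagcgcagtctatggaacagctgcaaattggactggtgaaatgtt

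MHC class I presentation, by which cells show peptides to CD8 T cells, rose in 11 of 18 tested genes, with 0 lower and a median of 1.51. H2-K1 was at 1251, 1115 and 1559 FPKM in the CKp25 mice, against 141, 219 and 195 FPKM in the CK mice. H2-D1 was at 1821, 1295 and 1590.4 FPKM in the CKp25 mice, against 187, 258 and 181 FPKM in the CK mice. They rose by 4.68 ± 0.57 and 4.97 ± 0.61 (adjusted p = 8.17e-08 and 7.15e-08), without overlap, and since class I genes share reads, single H2 values are uncertain. H2-Q7, H2-Q6, H2-Q4, H2-T23, H2-M3 and H2-T22 also rose, by 0.67 to 4.06. B2m, the light chain of all class I molecules, was found in 100% of cells of both groups. It was at 7754, 7489 and 7100.3 FPKM in the CKp25 mice, against 1875, 3106 and 1809 FPKM in the CK mice. It rose by 1.81 ± 0.50 (adjusted p = 0.016). Tap1, a subunit of the peptide pump, rose by 2.70 ± 0.37, and its partner gene Tap2 differed by 0.54 ± 0.36 (adjusted p = 5.92e-07 and 0.445). Nlrc5, the activator of class I transcription, was at 5.40, 4.28 and 7.05 FPKM in the CKp25 mice, against 0.0652, 0.0524 and 0 FPKM in the CK mice (difference 1.21 ± 0.15, adjusted p = 1e-07). The peptide-loading genes Tapbp, Calr, Canx and Pdia3 did not pass (adjusted p = 0.618, 0.782, 0.773 and 0.912). H2-T22 did not pass without CKp25 mouse 3 (adjusted p up to 0.0764) and B2m without CKp25 mouse 1 or 3 or CK mouse 1 or 3 (adjusted p up to 0.09). H2-M3 and H2-T22 did not pass with the log2 of the mean FPKM. B2m did not pass with no filter on low values.

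Of the 5 immunoproteasome genes, whose products trim peptides for class I, Psmb8, Psmb9 and Psme1 rose by 1.66 ± 0.49, 1.63 ± 0.37 and 3.23 ± 0.53 (adjusted p = 0.0257, 0.00274 and 2.51e-05). The replaced constitutive subunits Psmb5, Psmb6 and Psmb7 differed by 1.65 ± 0.55, 1.36 ± 0.53 and 0.48 ± 0.34 and did not pass (adjusted p = 0.0555, 0.112 and 0.469). The medians were 1.63 over the immunoproteasome genes and 1.36 over the constitutive subunits. Of 7 tested MHC class II genes, which present peptides to CD4 T cells, 1 rose. It was the invariant chain gene Cd74, found in 54.8, 30.5 and 55.2% of the cells of the CKp25 mice, against 3.16, 7.37 and 13.2% in the CK mice, which rose by 2.83 ± 0.42 (adjusted p = 3.64e-06). Class II levels were uneven among the CKp25 mice and lowest in mouse 2. H2-Aa was at 197, 2.97 and 221 FPKM in the CKp25 mice, against 0, 0 and 3.39 FPKM in the CK mice. H2-Ab1 was at 225, 15.5 and 294 FPKM in the CKp25 mice, against 9.27, 4.30 and 7.29 FPKM in the CK mice. H2-Aa, H2-Ab1 and H2-Eb1 differed by 0.81 ± 0.39, 1.67 ± 0.58 and 0.63 ± 0.26 and did not pass (adjusted p = 0.251, 0.083 and 0.16). Ciita, the switch of class II transcription, was found in 2.15%, 2.11% and 4.48% of the cells of the CKp25 mice, against 0%, 1.05% and 1.10% in the CK mice, and was not tested. Psmb8 did not pass without CKp25 mouse 1, 2 or 3 or CK mouse 1 or 3 (adjusted p up to 0.154). Psmb8, Psmb9, Psme1 and Cd74 did not pass with the log2 of the mean FPKM. Psmb8 did not pass with no filter on low values.

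**Figure D2:**
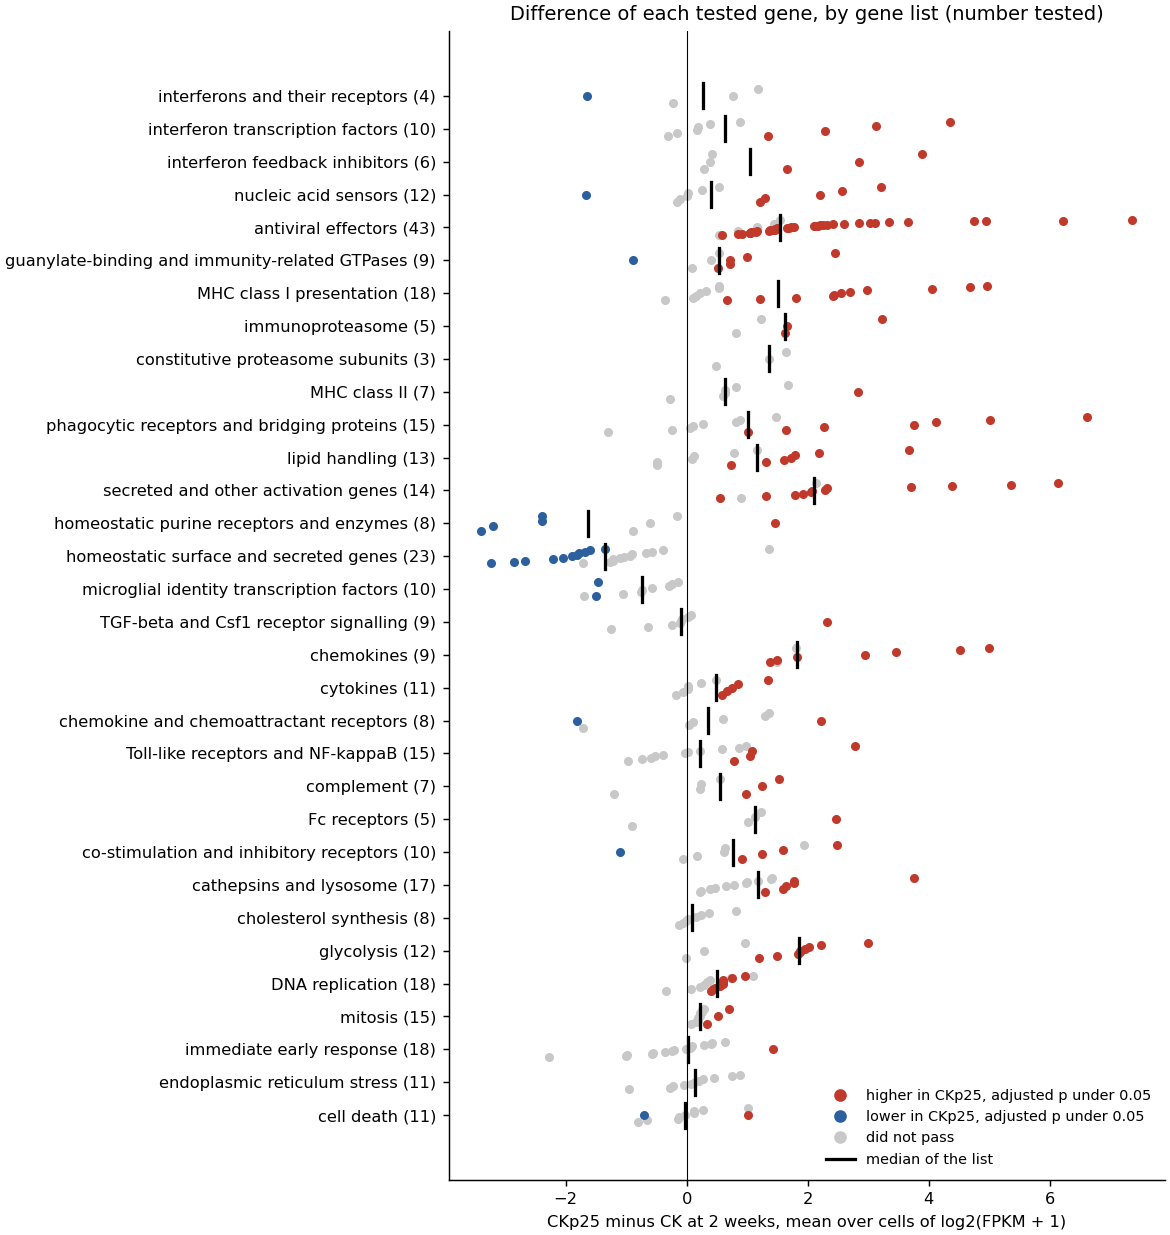
Genotype difference at 2 weeks in log2(FPKM + 1), CKp25 minus CK (x axis), of every tested gene (points) in 32 gene lists (y axis, number tested in parentheses), with genes that rose in red, that fell in blue and that did not pass in gray, and a bar for the list median. Antiviral effectors (median 1.54) and glycolysis (1.85) lie to the right, and homeostatic surface genes (-1.36) to the left.

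Of 20 phagocytic receptors and bridging proteins 15 were tested, and 7 rose and 0 fell, with a median of 1.01. Axl, a receptor kinase for dying cells, was at 86.1, 63.0 and 121 FPKM in the CKp25 mice, against 0.213, 1.30 and 0.679 FPKM in the CK mice. It was found in 82.8, 77.9 and 95.5% of the cells of the CKp25 mice, against 6.32, 6.32 and 6.59% in the CK mice. It rose by 5.01 ± 0.34 (adjusted p = 2.8e-14). Of the 2-week mice, the CKp25 mice alone brought Axl to the 10% of cells asked of a tested gene. Mertk, its relative, was lower in every CKp25 mouse, at 88.7, 75.1 and 80.8 FPKM, against 172, 172 and 138 FPKM in the CK mice, and did not pass (difference -1.31 ± 0.51, adjusted p = 0.112). Their ligand genes Gas6 and Pros1 differed by 0.06 ± 0.43 and 0.26 ± 0.53 (adjusted p = 0.962 and 0.84). Lgals3bp, a secreted galectin-binding protein, was at 781, 805 and 874 FPKM in the CKp25 mice, against 34.3, 70.1 and 39.7 FPKM in the CK mice. It rose by 6.62 ± 0.48 (adjusted p = 1.93e-13), without overlap. Lgals3 itself was found in 10.8, 7.37 and 25.4% of the cells of the CKp25 mice, against 0% in the CK mice. It rose by 1.01 ± 0.24 (adjusted p = 0.00983). Lgals3 did not pass with a fit of the 2-week mice alone.

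The receptor Trem2, which senses lipids and is required for full microglial activation, was at 795, 666 and 839 FPKM in the CKp25 mice, against 878, 995 and 727 FPKM in the CK mice, and overlapped (difference -0.24 ± 0.48, adjusted p = 0.836). Its adaptor Tyrobp was at 3055, 2204 and 2904 FPKM in the CKp25 mice, against 1866, 1856 and 1477 FPKM in the CK mice, and did not pass (difference 0.81 ± 0.51, adjusted p = 0.403). Clec7a, the receptor Dectin-1, was at 129.8, 68.1 and 185 FPKM in the CKp25 mice, against 3.78, 0.0250 and 1.73 FPKM in the CK mice. It rose by 4.12 ± 0.36 (adjusted p = 2.12e-11). The integrin gene Itgax, which encodes CD11c, rose by 2.28 ± 0.23 and the tetraspanin genes Cd63 and Cd9 by 3.75 ± 0.55 and 1.63 ± 0.54 (adjusted p = 8.32e-10, 3.42e-06 and 0.0486). Cd9 was at 1401, 1314 and 1675 FPKM in the CKp25 mice, against 622, 783 and 485 FPKM in the CK mice, so it was abundant in both. Cd68, a lysosomal glycoprotein, overlapped and differed by 0.88 ± 0.58 (adjusted p = 0.432). Cd36, Msr1, Tyro3, Timd4 and Lgals1 were found in too few cells to be tested. Cd9 did not pass in 16 of 25 omissions (adjusted p up to 0.169), with the log2 of the mean FPKM, nor in 5 further settings.

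Of 13 tested lipid-handling genes 7 rose and 0 fell, with a median of 1.16. Apoe, which carries lipids between brain cells, was at 3725, 4047 and 7213 FPKM in the CKp25 mice, against 309, 210.4 and 939.9 FPKM in the CK mice, with mouse 3 of either genotype the highest of its group. It rose by 3.67 ± 0.90 (adjusted p = 0.00925), without overlap. Ch25h, which makes 25-hydroxycholesterol, was at 72.6, 27.8 and 85.3 FPKM in the CKp25 mice, against 0, 0 and 0.497 FPKM in the CK mice. It rose by 1.78 ± 0.21 (adjusted p = 1.5e-07). Lpl, which frees fatty acids from lipoproteins, the fatty acid carrier genes Fabp5 and Fabp3, the lipid droplet gene Plin2 and the lysosomal cholesterol carrier gene Npc2 rose by 1.72 ± 0.27, 1.30 ± 0.15, 0.73 ± 0.12, 1.61 ± 0.28 and 2.18 ± 0.48. The cholesterol exporter genes Abca1 and Abcg1 overlapped and differed by 0.09 ± 0.45 and -0.49 ± 0.44 (adjusted p = 0.943 and 0.589). Over 8 tested cholesterol synthesis genes the median was 0.08 and the smallest adjusted p was 0.0622, for Fdft1. Apoe did not pass without CKp25 mouse 3 or CK mouse 2 (adjusted p up to 0.0652). Apoe, Lpl and Plin2 did not pass with the log2 of the mean FPKM. Apoe did not pass in 2 further settings.

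Of 14 tested secreted and other activation genes 12 rose and 0 fell, with a median of 2.11. All 14 lay higher without overlap, as 13.2% of all tested genes did. Cst7, an inhibitor of cathepsins, was at 659.6, 404 and 739 FPKM in the CKp25 mice, against 5.52, 0.673 and 2.95 FPKM in the CK mice. It rose by 6.13 ± 0.46 (adjusted p = 8.04e-13). Cd52, a small surface glycoprotein, was at 524, 389.8 and 839.7 FPKM in the CKp25 mice, against 71.3, 119.9 and 54.2 FPKM in the CK mice (difference 5.37 ± 0.54), and Lyz2, lysozyme, at 721, 440.5 and 706 FPKM, against 65.8, 139.7 and 114 FPKM in the CK mice (difference 4.38 ± 0.53; its copy Lyz1 makes it uncertain). Spp1, the matrix protein osteopontin, was uneven among the CKp25 mice, at 221, 60.9 and 319.5 FPKM, against 0.345, 0.897 and 7.02 FPKM in the CK mice. It rose by 2.07 ± 0.30 (adjusted p = 5.71e-06). Csf1, a growth factor of microglia, and Igf1, a growth factor for neurons, rose by 2.32 ± 0.27 and 0.56 ± 0.16, and the oxidase gene Cybb by 1.8 ± 0.23. Cd83, Lilrb4, Lyz1, the hypoxia factor gene Hif1a and the protease inhibitor gene Timp2 rose by 3.70 ± 0.50, 2.28 ± 0.28, 1.92 ± 0.30, 2.05 ± 0.40 and 1.32 ± 0.37. The iron storage genes Fth1 and Ftl1 were higher in every CKp25 mouse and did not pass (differences 2.14 ± 0.94 and 0.90 ± 0.46, adjusted p = 0.19 and 0.273). Gpnmb was found in 2.15%, 0% and 2.99% of the cells of CKp25 mice, against 0%, 0% and 1.10% in CK mice, and was not tested. Igf1 did not pass without CKp25 mouse 3 or CK mouse 2 or 3 (adjusted p up to 0.277) and Timp2 without CKp25 mouse 1 or 3 or CK mouse 1 or 3 (adjusted p up to 0.133). Igf1, Hif1a and Timp2 did not pass with the log2 of the mean FPKM. Igf1 did not pass in 4 further settings and Timp2 in 2 further settings.

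Monocytes can enter the injured brain and share part of these genes, and border macrophages can pass the sort. Of 6 monocyte markers 4 were found in each group, and they summed to 25.5 to 30.0 FPKM in the CKp25 mice, against 0.283 to 20.6 FPKM in the CK mice. Among them Plac8 was found in 12.9, 13.7 and 13.4% of the cells of the CKp25 mice, against 1.05, 0 and 1.10% in the CK mice. At 2 weeks Plac8 thus reached the 10% of cells asked of a tested gene in the CKp25 mice alone. It rose by 0.89 ± 0.11 (adjusted p = 8.08e-08). Ccr2, the receptor of inflammatory monocytes, differed by 0.10 ± 0.11 (adjusted p = 0.678), and Ly6c2 was found in 1.08%, 1.05% and 4.48% of the cells of CKp25 mice, against 0% in CK mice. Border macrophage markers summed to 2.45 to 13.5 FPKM in the CKp25 mice, against 0.611 to 155.7 FPKM in the CK mice, the highest being CK mouse 3, and the CK group held 3 such cells. The 5 neutrophil markers summed to 3.55 to 5.49 FPKM in the CKp25 mice, against 5.75 to 7.65 FPKM in the CK mice, and the 6 astrocyte markers to 23.3 to 33.0 FPKM, against 41.5 to 60.4 FPKM in the CK mice. The part of monocytes in the rises was not tested. Without the cells that carried 3 or more markers of another type, 549 genes rose (522 of them among the 550) and 202 fell. Of the 2-week CKp25 cells so left out, 1 carried 3 or more monocyte markers, so this setting does not test the part of monocytes.

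Over both homeostatic lists 31 genes were tested, 15 fell and 1 rose, and the median was -1.36. Among 8 purine receptors and enzymes, P2ry12, the receptor by which microglial processes reach ADP, was at 412, 495 and 441 FPKM in the CKp25 mice, against 2387, 2947 and 1699.5 FPKM in the CK mice. It was still found in 91.4, 98.9 and 91.0% of the cells of the CKp25 mice, against 100, 100 and 97.8% in the CK mice. It fell by 3.20 ± 0.49 on the log2 scale (adjusted p = 7.74e-06), without overlap. P2ry13 was at 119, 190.2 and 149 FPKM in the CKp25 mice, against 684, 847 and 471 FPKM in the CK mice (difference -3.40 ± 0.52, adjusted p = 7.76e-06). The receptor gene Gpr34 and Entpd1, the enzyme CD39 that degrades extracellular ATP, fell by 2.38 ± 0.48 and 2.39 ± 0.52 on that scale (adjusted p = 0.000526 and 0.00161). P2rx4, an ATP-gated channel of activated microglia, was the exception and rose by 1.46 ± 0.39 (adjusted p = 0.0115), though its mean FPKM overlapped, at 61.9, 45.3 and 90.3 in the CKp25 mice, against 39.5, 51.4 and 33.5 in the CK mice. P2ry6, P2rx7 and Adora3 did not pass (adjusted p = 0.549, 0.263 and 0.847). P2rx4 did not pass without CKp25 mouse 3 or CK mouse 1 or 3 (adjusted p up to 0.0651), with the log2 of the mean FPKM, nor with the log2 of the mean FPKM centred on the median gene.

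Of 23 tested homeostatic surface and secreted genes 11 fell and 0 rose. Without overlap 18 lay lower, as 11.2% of all tested genes did. Slc2a5, the fructose transporter of microglia, was at 34.4, 73.0 and 83.5 FPKM in the CKp25 mice, against 239, 423 and 165 FPKM in the CK mice. It fell by 3.24 ± 0.62 on the log2 scale (adjusted p = 0.000292). Cx3cr1, the receptor for the neuronal chemokine fractalkine, was at 412, 403 and 402 FPKM in the CKp25 mice, against 1307, 1514 and 972 FPKM in the CK mice. Tmem119, a microglial membrane protein, was at 532, 807 and 676 FPKM in the CKp25 mice, against 1513, 2543 and 1316 FPKM in the CK mice. They fell by 1.82 ± 0.45 and 1.78 ± 0.48 (adjusted p = 0.00543 and 0.0117), and Gpr56, Crybb1, Slco2b1, Abca9, Selplg, Pmepa1, Siglech and Cst3 by 1.36 to 2.86 on the log2 scale. Cst3, cystatin C, was the most abundant of them, at 12707, 12487 and 10514 FPKM in the CKp25 mice, against 27569, 28546 and 26864 FPKM in the CK mice (difference -1.36 ± 0.44, adjusted p = 0.0447). Other members did not pass: Olfml3 differed by -0.39 ± 0.46, Sparc by -0.57 ± 0.47 and Csf1r by -0.94 ± 0.46 (adjusted p = 0.698, 0.557 and 0.242). Serpine2 lay above in every CKp25 mouse and did not pass (difference 1.37 ± 0.55, adjusted p = 0.125). Tmem119 did not pass without CKp25 mouse 1 or 3 or CK mouse 2 (adjusted p up to 0.077), Siglech without CKp25 mouse 1 or 3 or CK mouse 1 (adjusted p up to 0.0972), Cst3 in 16 of 25 omissions (adjusted p up to 0.148) and Pmepa1 without CK mouse 2 (adjusted p up to 0.0577). Cst3 did not pass in 3 further settings.

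**Figure D3:**
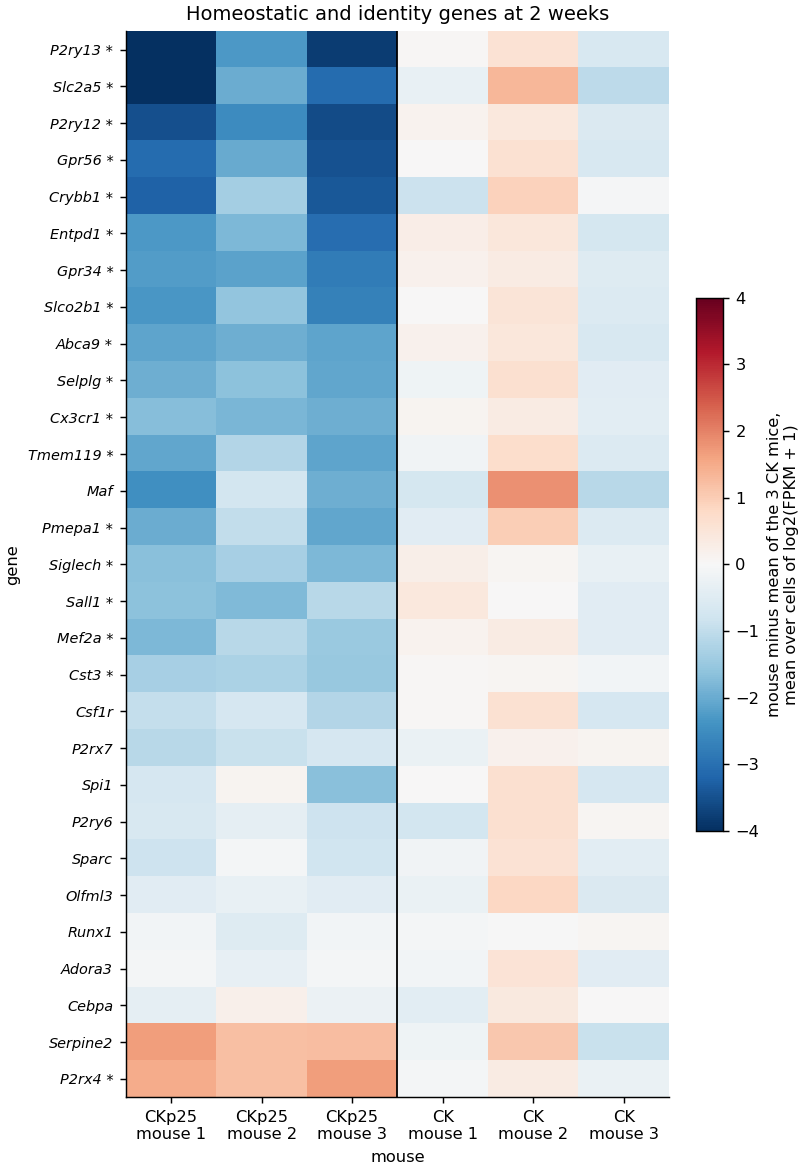
Each of 29 homeostatic and identity genes that the text names (rows, ordered by difference, with a star for adjusted p under 0.05) in each of the 6 mice (columns), as the mouse's mean over cells of log2(FPKM + 1) minus the mean of the 3 CK mice (color scale). P2ry13, Slc2a5 and P2ry12 are lowest in the CKp25 mice, CKp25 mouse 2 is paler than the others in Slc2a5, Crybb1 and Maf, and CK mouse 2 is the darkest red of the CK mice in most genes.

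Over the 31 homeostatic genes the median lay -1.66, -1.16 and -1.78 from the CK mean in the CKp25 mice, against 0.03, 0.54 and -0.55 in the CK mice. CKp25 mouse 2 thus stood closest to the CK mice, and CK mouse 3 was the lowest of its group. Of 10 tested transcription factors that keep microglial identity 2 fell, with a median of -0.75. All 10 differences were negative, from -1.70 to -0.14. Of the 10, 5 lay lower without overlap, as 11.2% of all tested genes did. Sall1, a repressor of other macrophage fates, was at 26.3, 24.3 and 37.8 FPKM in the CKp25 mice, against 83.3, 61.7 and 50.2 FPKM in the CK mice. Mef2a was at 31.4, 38.0 and 43 FPKM in the CKp25 mice, against 97.5, 99.7 and 76.8 FPKM in the CK mice. They fell by 1.5 ± 0.46 and 1.46 ± 0.45 on the log2 scale (adjusted p = 0.0316 and 0.0332). Spi1, which encodes PU.1, Irf8, Runx1 and Cebpa overlapped or did not pass (adjusted p = 0.735, 0.733, 0.828 and 0.87). Of the TGF-beta and Csf1 receptor pathway, the ligand gene Csf1 was the 1 gene of 9 to rise, and Tgfbr1, Tgfbr2 and Tgfb1 did not pass (adjusted p = 0.0957, 0.946 and 0.641). Sall1 did not pass without CKp25 mouse 1 or 2 or CK mouse 1 or 2 (adjusted p up to 0.173) and Mef2a without CKp25 mouse 1 or 3 or CK mouse 1 or 2 (adjusted p up to 0.136). Sall1 did not pass with the log2 of the mean FPKM. Sall1 did not pass in 2 further settings and Mef2a in 2 further settings.

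Chemokines rose in 7 of 9 tested genes, of 14 in the list, with 0 lower and a median of 1.82. Ccl3 and Ccl4, which attract leukocytes and whose close copies make them uncertain, were at 719, 812 and 711 and 1248, 1558 and 1103 FPKM in the CKp25 mice, against 182, 466 and 104 and 219, 393 and 363 FPKM in the CK mice. They rose by 4.52 ± 0.53 and 5 ± 0.69 (adjusted p = 3.31e-08 and 2.87e-06). The monocyte attractant genes Ccl12 and Ccl2 rose by 2.95 ± 0.48 and 1.82 ± 0.39, with Ccl2 high in CK mouse 2 (277, 228 and 233 FPKM in the CKp25 mice, against 79.9, 252 and 73.1 FPKM in the CK mice). Cxcl16, which draws T cells, was at 111, 78.0 and 129 FPKM in the CKp25 mice, against 12.9, 19.3 and 11.4 FPKM in the CK mice. It rose by 3.46 ± 0.44 (adjusted p = 1.5e-07), and Ccl9 rose by 1.37 ± 0.41. Cxcl10, an interferon-induced attractant of T cells, rose by 1.49 ± 0.22 (adjusted p = 1.89e-05). It was found in 12.9, 18.9 and 23.9% of the cells of the CKp25 mice, against 1.05, 0 and 1.10% in the CK mice. At 2 weeks it thus reached the 10% of cells asked of a tested gene in the CKp25 mice alone. Ccl5 was at 757, 757 and 1247 FPKM in the CKp25 mice, against 23, 22.4 and 70.4 FPKM in the CK mice, yet did not pass (difference 1.81 ± 0.70, adjusted p = 0.137). It was found in 37.6, 26.3 and 59.7% of the cells of the CKp25 mice, against 28.4, 13.7 and 35.2% in the CK mice. Ccl9 did not pass without CKp25 mouse 1 or 2 or CK mouse 1 or 3 (adjusted p up to 0.104). Ccl4, Ccl2 and Ccl9 did not pass with the log2 of the mean FPKM. Ccl2 did not pass with the log2 of the mean FPKM centred on the median gene and Ccl9 in 2 further settings.

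Of 11 tested cytokines 5 rose and 0 fell, with a median of 0.48. Tnf, found in 34.4, 30.5 and 40.3% of the cells of the CKp25 mice, against 16.8, 16.8 and 12.1% in the CK mice, rose by 1.34 ± 0.28 (adjusted p = 0.00108). Il1rn, the antagonist of interleukin 1, and Il18bp, that of interleukin 18, rose by 0.75 ± 0.10 and 0.66 ± 0.12 (adjusted p = 4.47e-07 and 0.00015). Il1b and Osm rose by 0.58 ± 0.19 and 0.84 ± 0.23 (adjusted p = 0.0443 and 0.0121), while Il1a, Il18, Il6 and Il15 overlapped and did not pass (adjusted p = 0.989, 0.975, 0.547 and 0.91). Il12b was found in 5.38%, 2.11% and 4.48% of the cells of the CKp25 mice, against 0% in the CK mice, and was not tested. Tlr2, a receptor for bacterial lipoproteins, was at 134, 125 and 213 FPKM in the CKp25 mice, against 32.9, 60.4 and 45.3 FPKM in the CK mice. It rose by 2.78 ± 0.46 (adjusted p = 3.11e-05), as 4 of 15 Toll-like receptor and NF-kappaB genes did, with a median of 0.22. Tlr1 and the NF-kappaB subunit genes Relb and Nfkb2 rose by 1.05 ± 0.27, 1.08 ± 0.24 and 0.78 ± 0.22, whereas Rela and Nfkb1 differed by -0.59 ± 0.34 and -0.52 ± 0.33 (adjusted p = 0.343 and 0.417). Il1b did not pass in 12 of 25 omissions (adjusted p up to 0.237), Osm without CKp25 mouse 2 or 3 or CK mouse 3 (adjusted p up to 0.0764), Tlr1 without CKp25 mouse 3 (adjusted p up to 0.0836) and Nfkb2 without CKp25 mouse 1 or 2 or CK mouse 1 (adjusted p up to 0.0884). Tnf, Il18bp, Il1b, Osm, Tlr1, Relb and Nfkb2 did not pass with the log2 of the mean FPKM. Tnf did not pass with the log2 of the mean FPKM centred on the median gene, Il1b in 6 further settings, Osm with the log2 of the mean FPKM centred on the median gene and Nfkb2 in 2 further settings.

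Among 8 tested chemoattractant receptors, Ccrl2 rose by 2.21 ± 0.38 and Cx3cr1 fell, and C5ar1, C3ar1 and Gpr84 did not pass (adjusted p = 0.437, 0.081 and 0.0531). The C1q chains, the start of the classical complement pathway and among the most abundant microglial transcripts, did not pass (C1qa 0.21 ± 0.46, C1qb 0.54 ± 0.46, C1qc 0.23 ± 0.46). Further along complement, C3, the convertase component gene C4b and the alternative pathway gene Cfb were near 0 in the CK mice and rose. C3 was at 8.63, 9.39 and 9.89 FPKM in the CKp25 mice, against 0.0190, 0 and 0.422 FPKM in the CK mice. Cfb was at 29.2, 23.6 and 42.0 FPKM in the CKp25 mice, against 0.122, 0.163 and 1.75 FPKM in the CK mice. The rises were 0.98 ± 0.14, 1.25 ± 0.25 and 1.53 ± 0.19 (adjusted p = 1.49e-06, 0.00104 and 7.92e-07). Of 5 Fc receptors, which bind antibody, Fcgr4 rose by 2.47 ± 0.31 (adjusted p = 2.19e-07). It was at 48.1, 66.9 and 57.1 FPKM in the CKp25 mice, against 3.51, 11.1 and 2.19 FPKM in the CK mice, and Fcgr3, Fcgr1, Fcgr2b and Fcer1g did not pass. Of 10 tested co-stimulatory and inhibitory receptors Cd72, Cd300lf, Siglec1 and Cd274 rose by 2.49 ± 0.40, 1.60 ± 0.18, 1.25 ± 0.14 and 0.91 ± 0.27, and Siglece fell by 1.10 ± 0.31 on the log2 scale although its mice overlapped. Cd274 did not pass without CKp25 mouse 1 or 3 or CK mouse 1, 2 or 3 (adjusted p up to 0.281) and Siglece without CKp25 mouse 3 or CK mouse 1 or 2 (adjusted p up to 0.168). Ccrl2 and Cd274 did not pass with the log2 of the mean FPKM. Cd274 did not pass in 4 further settings and Siglece with no filter on low values.

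Of 17 tested cathepsin and lysosome genes 6 rose and 0 fell, with a median of 1.18. Without overlap 12 lay higher, as 13.2% of all tested genes did. The proteases Ctsb, Ctsz and Ctsc rose by 1.65 ± 0.48, 1.59 ± 0.49 and 1.77 ± 0.54 (adjusted p = 0.022, 0.0337 and 0.0316), as did Cd63 and the hydrolase gene Gusb. Of the 6 that rose, 1 passed without CKp25 mouse 3, CK mouse 1 or CK mouse 3, 3 without CKp25 mouse 1, and 11 genes of the list with the centred log2 of the mean FPKM. Ctsb was at 1407, 1243 and 1542 FPKM in the CKp25 mice, against 410.4, 608 and 364 FPKM in the CK mice. Ctsd, the most abundant, was at 14679.7, 11389 and 15148 FPKM in the CKp25 mice, against 6826, 8649 and 5751 FPKM in the CK mice, and did not pass (difference 0.77 ± 0.44, adjusted p = 0.338). Ctss and Grn, the gene of progranulin, did not pass either (differences 0.46 ± 0.47 and 1.41 ± 0.48, adjusted p = 0.647 and 0.0595). Ctsb did not pass without CKp25 mouse 1 or 3 or CK mouse 1 or 3 (adjusted p up to 0.102), Ctsz without CKp25 mouse 1 or 3 or CK mouse 1 or 3 (adjusted p up to 0.154), Ctsc without CKp25 mouse 2 or 3 or CK mouse 1 or 3 (adjusted p up to 0.183) and Gusb without CKp25 mouse 3 or CK mouse 1 or 3 (adjusted p up to 0.0718). Ctsc and Gusb did not pass with the log2 of the mean FPKM. Ctsb did not pass with a pseudocount of 0.1, Ctsz in 3 further settings and Ctsc with no filter on low values.

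Glycolysis rose in 9 of 12 tested genes, with 0 lower and a median of 1.85. Pkm, pyruvate kinase, was at 283, 263 and 384 FPKM in the CKp25 mice, against 89.5, 134 and 54.4 FPKM in the CK mice. Ldha, which makes lactate, was at 220.1, 208 and 288 FPKM in the CKp25 mice, against 90.2, 148 and 82.3 FPKM in the CK mice. They rose by 3.00 ± 0.53 and 2.22 ± 0.49 (adjusted p = 7.24e-05 and 0.00167), and Aldoa, Pgam1, Pgk1, Gapdh, Tpi1, Gpi1 and Eno1 by 1.19 to 2.02, of which Gapdh overlapped. The glucose transporter gene Slc2a1 and Hk2, which starts the pathway, overlapped and did not pass (differences 0.28 ± 0.18 and -0.02 ± 0.40, adjusted p = 0.418 and 0.987). By mouse the list median lay 1.29, 1.74 and 1.83 above the CK mean in the CKp25 mice, against -0.42, 0.83 and -0.48 in the CK mice, so CK mouse 2 stood between the groups. Of the 9 that rose, 5 passed without CKp25 mouse 3 and 1 with the log2 of the mean FPKM. With that mean centred on the median gene, an alternative added after seeing the data, 7 genes of the list rose. Aldoa did not pass without CKp25 mouse 3 (adjusted p up to 0.0554), Gapdh without CKp25 mouse 2 or 3 or CK mouse 1 or 3 (adjusted p up to 0.193), Gpi1 without CKp25 mouse 2 or 3 or CK mouse 1 or 3 (adjusted p up to 0.13) and Eno1 without CKp25 mouse 3 or CK mouse 1 or 3 (adjusted p up to 0.158). Ldha, Aldoa, Pgam1, Pgk1, Gapdh, Tpi1, Gpi1 and Eno1 did not pass with the log2 of the mean FPKM. Pgam1 did not pass with the log2 of the mean FPKM centred on the median gene, Gapdh in 3 further settings, Gpi1 in 3 further settings and Eno1 in 2 further settings.

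Of 18 tested DNA replication genes 10 rose and 0 fell, with a median of 0.51, and of 15 tested mitosis genes 3 rose, with a median of 0.22. Top2a, which untangles chromosomes, was found in 9.68, 12.6 and 7.46% of the cells of the CKp25 mice, against 2.11, 1.05 and 0% in the CK mice. It rose by 0.51 ± 0.10 (adjusted p = 0.000527). Mki67, a marker of dividing cells, was found in 5.38, 10.5 and 4.48% of the cells of CKp25 mice, against 0, 2.11 and 6.59% in CK mice, and did not pass (difference 0.21 ± 0.09, adjusted p = 0.185). The kinase gene Cdk1 rose by 0.71 ± 0.15, the cyclin gene Ccnb2 by 0.34 ± 0.10 and Tk1, which makes thymidine nucleotides, by 0.59 ± 0.12, without overlap. CKp25 mouse 2 was the highest in these lists: the replication median lay 0.25, 0.87 and 0.34 above the CK mean in the CKp25 mice, against -0.09, 0.05 and 0.0046 in the CK mice. Of the 10 replication genes that rose, 1 passed without CKp25 mouse 2 (Tk1) and 3 without CK mouse 1, while 3 passed with the log2 of the mean FPKM and 3 with cells of at least 2000 genes. Of mitosis genes, 5 passed without CKp25 mouse 1 and 7 with the log2 of the mean FPKM. Uhrf1 and Rrm2, both of the replication list, rose by 0.55 ± 0.13 and 0.43 ± 0.11. Ccnb2 did not pass without CKp25 mouse 2 or CK mouse 1 or 2 (adjusted p up to 0.237), Uhrf1 without CKp25 mouse 2 (adjusted p up to 0.0696) and Rrm2 without CKp25 mouse 2 (adjusted p up to 0.192). Ccnb2 did not pass in 4 further settings, Tk1 with cells of at least 2000 genes and Rrm2 in 2 further settings.

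Of 18 immediate early genes, which tissue digestion can induce, Atf3 alone rose, by 1.43 ± 0.43 (adjusted p = 0.0321), with a list median of 0.02, and Fos, Egr1 and Jun differed by -0.22 ± 0.69, -1 ± 0.72 and -2.27 ± 0.97 (adjusted p = 0.904, 0.491 and 0.181). Over 11 endoplasmic reticulum stress genes, such as Hspa5 and Xbp1, the median was 0.14 and the smallest adjusted p was 0.175, for the factor gene Ddit3. Of 11 tested cell death genes 1 rose and 1 fell, with a median of -0.02. Casp4, an inflammatory caspase, rose by 1.02 ± 0.25 (adjusted p = 0.00543). Atf3 did not pass without CKp25 mouse 1 or 2 or CK mouse 1 or 3 (adjusted p up to 0.191) and Casp4 without CK mouse 3 (adjusted p up to 0.0598). Atf3 and Casp4 did not pass with the log2 of the mean FPKM. Atf3 did not pass in 5 further settings and Casp4 with the log2 of the mean FPKM centred on the median gene.

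The changes were next read in single cells. Each cell was scored on a list by averaging log2(FPKM + 1) over the listed genes. The limit was the 95th percentile of CK cells at 0 weeks (1.39 for the 43 antiviral effectors, 3.94 for the 20 phagocytic genes) or, for the 31 homeostatic genes, the 5th percentile (5.78). Past the antiviral limit lay 89.2%, 87.4% and 92.5% of the cells of the CKp25 mice, against 1.05%, 5.26% and 3.30% in the CK mice (89.7% ± 2.62 and 3.20% ± 2.11, SD). Past the phagocytic limit lay 72.0%, 71.6% and 83.6% of the cells of the CKp25 mice, against 3.16%, 16.8% and 3.30% in the CK mice (75.7% ± 6.80 and 7.77% ± 7.86). Of the phagocytic genes in this plain mean 7 rose, Lgals3bp (6.62) and Axl (5.01) the most, and 8 did not pass. Of these 20 genes, the median number found per cell was 11, 11 and 12 in the CKp25 mice, against 8, 8 and 8 in the CK mice. Below the homeostatic limit lay 36.6%, 22.1% and 38.8% of the cells of the CKp25 mice, against 1.05%, 1.05% and 6.59% in the CK mice (32.5% ± 9.06 and 2.90% ± 3.20). None of the 3 shares overlapped between the groups, and the exact permutation test over mice, 2-sided, gave p = 0.1 for each, the smallest that 3 mice against 3 can give. Within 0.2 of the antiviral limit lay 4, 12 and 5 cells of the CKp25 mice, against 7, 7 and 6 of the CK mice. For the phagocytic limit these numbers were 12, 18 and 4 in the CKp25 mice, against 3, 23 and 3 in the CK mice, and for the homeostatic limit 9, 10 and 4, against 2, 2 and 4 in the CK mice. The difference in the homeostatic share, 29.6 percentage points, moved to 54.2 with cells of at least 2000 genes, 49.7 with the limit at the 10th percentile and 12.8 with a score of genes found or not. Of the 43 antiviral effectors, the median number found per cell was 20, 19 and 23 in the CKp25 mice, against 7, 8 and 7 in the CK mice.

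**Figure D4:**
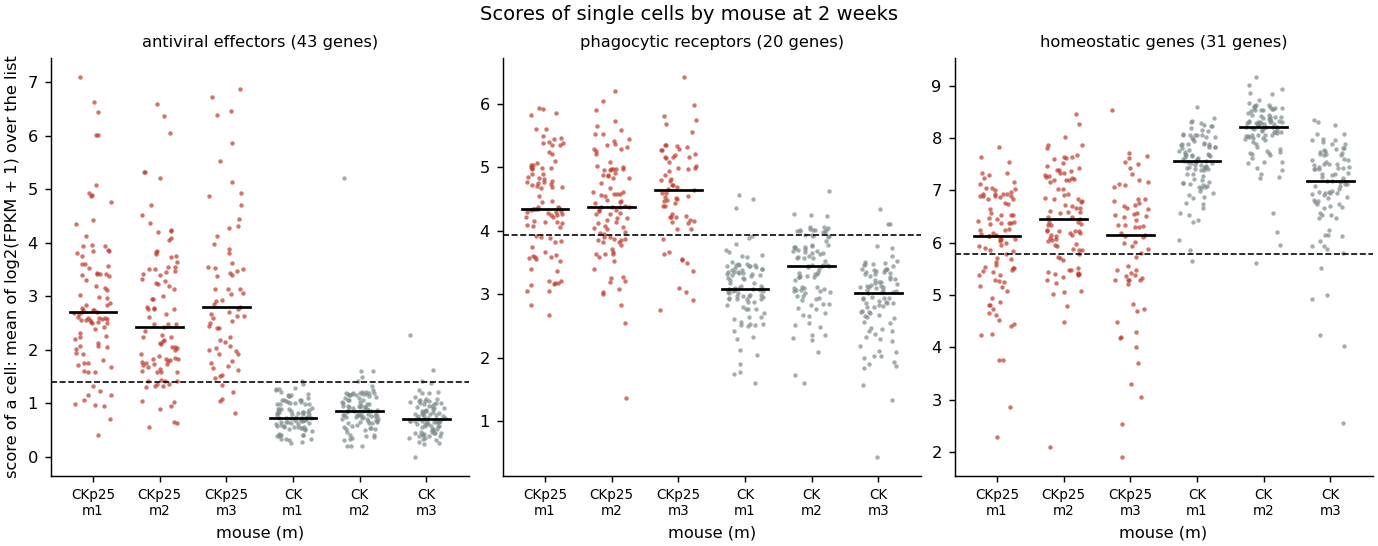
Score of each kept cell (y axis, average log2(FPKM + 1) of the listed genes) for antiviral effectors, phagocytic receptors and homeostatic genes (panels) in each of the 6 mice (x axis; CKp25 red, CK gray), with a bar for the median of the mouse and a dashed line for the limit. Most CKp25 cells lie above the antiviral limit (89.2%, 87.4% and 92.5% by mouse) and few CK cells do.

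Cells were past both the antiviral and the phagocytic limit in 68.8%, 66.3% and 79.1% of the cells of the CKp25 mice, against 0%, 1.05% and 0% in the CK mice. A further 20.4%, 21.1% and 13.4% of the cells of the CKp25 mice were past the antiviral and not the phagocytic limit, against 1.05%, 4.21% and 3.30% in the CK mice. All 3 limits were passed by 20, 6 and 18 cells of the CKp25 mice (21.5%, 6.32% and 26.9%), against 0 cells in each CK mouse. None of the limits was passed by 3, 5 and 1 cells of the CKp25 mice, against 90, 74 and 80 cells of the CK mice. Within a mouse, a cell's antiviral score was correlated with its number of genes found (Spearman's rho 0.42, 0.59 and 0.50 over the cells of the CKp25 mice, against 0.46, 0.27 and 0.49 in the CK mice). Its rho with the homeostatic score was -0.0032, 0.36 and 0.23 in the CKp25 mice, against 0.07, 0.30 and 0.21 in the CK mice. These are descriptions over cells of 1 mouse that differ in the number of genes found, and the part of depth in them was not tested.

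The genotype difference was next compared between times. The median over the antiviral effectors was 0.01, 0.08, 1.54 and 1.2 at 0, 1, 2 and 6 weeks. That over the homeostatic lists was -0.09, -1.0, -1.36 and -1.18, that over MHC class II -0.18, 0.39, 0.63 and 2.59, and that over DNA replication 0.02, 1.15, 0.51 and -0.01 at the same times. Tested as an interaction, the genotype difference was larger (more positive) at 2 weeks than at 1 week for 122 genes (1.33%) and smaller for 38 (0.415%). The 5 largest increases were those of Ifi27l2a (6.75 ± 1.02), Lgals3bp (5.53 ± 0.68), Ifitm3 (5.45 ± 0.80), Rtp4 (4.71 ± 0.65) and Axl (4.55 ± 0.48), with adjusted p = 0.000329, 1.68e-06, 0.00013, 3.68e-05 and 4.43e-08. The 5 largest decreases were those of the cell cycle genes Tipin, Pbk and Ezh2, of Ahcy, which recycles homocysteine, and of the non-coding Snhg3, by 0.89 to 1.25 on the log2 scale. The number that were smaller was 21, 58 and 20 without CKp25 mouse 1, 2 or 3 of 2 weeks and 25 without CK mouse 3. Counted in either direction, the interaction passed for 30 of the 43 antiviral effectors, 9 of 18 MHC class I genes and 6 of 15 mitosis genes. The median difference of the mitosis genes was 0.925 at 1 week and 0.217 at 2 weeks. That of the MHC class I genes was -0.015 and 1.51. P2ry12 differed by -1.68 ± 0.49 at 1 week and by -3.20 ± 0.49 at 2 weeks (interaction -1.52 ± 0.69, adjusted p = 0.526).

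The genotype difference was larger at 2 weeks than at 6 weeks for 3 genes (0.0327%) and smaller for 1 (0.0109%). The 3 were the peroxiredoxin gene Prdx4, the hexose transporter gene Slc2a6 and the autophagy receptor gene Optn. Prdx4 was at 83.6, 72.7 and 75.2 FPKM in the CKp25 mice at 2 weeks, against 15.8, 23.8 and 46.3 FPKM in the CK mice, and its difference was 2.12 ± 0.35 at 2 weeks and -0.19 ± 0.33 at 6 weeks (interaction 2.32 ± 0.48, adjusted p = 0.0418). Slc2a6 was at 29.3, 30.9 and 44.3 FPKM in the CKp25 mice, against 0.118, 1.33 and 0.710 FPKM in the CK mice (interaction 1.52 ± 0.25, adjusted p = 0.0025), and Optn had an interaction of 0.68 ± 0.14 (adjusted p = 0.0418). The 1 gene with a smaller difference was the class II gene H2-Eb1, with 0.63 ± 0.26 at 2 weeks and 2.59 ± 0.25 at 6 weeks (interaction -1.96 ± 0.36, adjusted p = 0.028). Apoe differed by 1.77 ± 0.90, 3.67 ± 0.90 and 6.45 ± 0.84 at 1, 2 and 6 weeks, and Cd74 by 0.54 ± 0.42, 2.83 ± 0.42 and 5.45 ± 0.39, without a passing interaction between 2 and 6 weeks (adjusted p = 0.883 and 0.0757). Leaving out 1 mouse moved the 3 genes to between 1 and 12 and the 1 gene to between 0 and 3. Without CKp25 mouse 1 of 2 weeks all 3 interactions passed again. Without CK mouse 1 or 2 or CKp25 mouse 3 of 2 weeks, 1 of the 3 did. The same held without any 1 mouse of 0 weeks or any 1 CK mouse of 6 weeks. It also held without CK mouse 3 of 1 week or CKp25 mouse 1 of 6 weeks. With no filter on low values 0 of the 3 passed. H2-Eb1 did not pass without CK mouse 1, 2 or 3 of 2 weeks. Nor did it pass without CK mouse 2 or 3 or CKp25 mouse 1 of 6 weeks. Neither these interactions nor the 2-week difference of Prdx4 passed with the log2 of the mean FPKM.

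**Figure D5:**
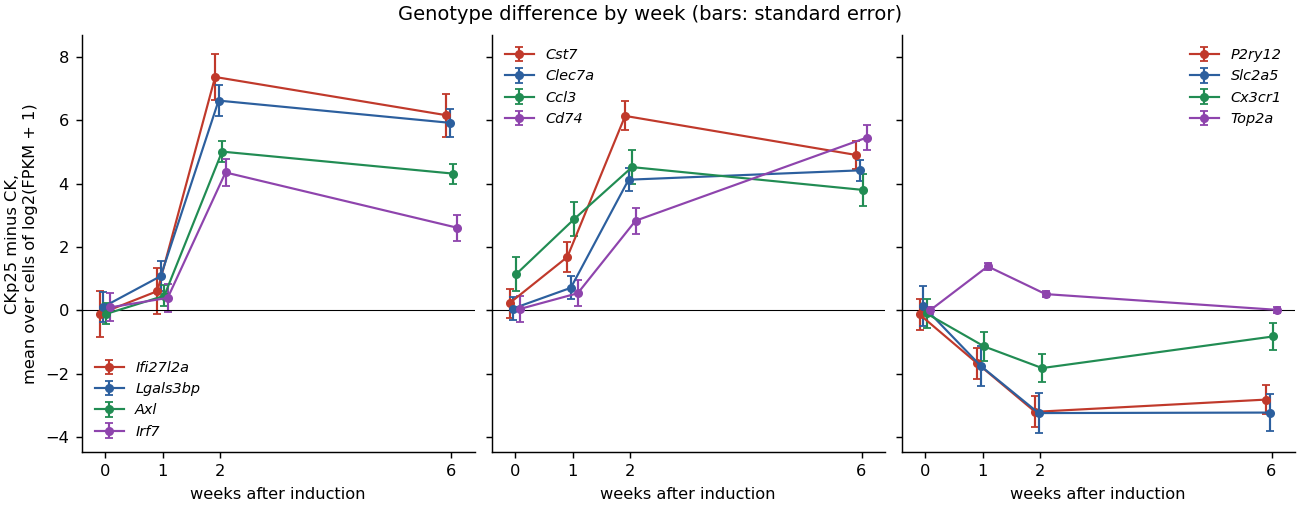
Genotype difference in log2(FPKM + 1), CKp25 minus CK (y axis), with standard error bars, at 0, 1, 2 and 6 weeks (x axis) for 12 genes in 3 panels. Ifi27l2a, Lgals3bp, Axl and Irf7 lie near 0 at 0 weeks and at 4.35 to 7.36 at 2 weeks, Cd74 is highest at 6 weeks, and Top2a is highest at 1 week.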

How the data were processed

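The authors deposited 1 table of FPKM per gene and well, computed with Cufflinks 2.2 on the mouse build mm9, per the submitters' processing notes. The hippocampus was digested with a neural dissociation kit, CD11b and CD45 positive cells were sorted 1 to a well, and cDNA was made with oligo-dT and 21 PCR cycles, per the labels' protocols. Counts per gene were not used here and the depth of each library is unknown. Of its values 90.0% are 0, which can be genes not caught in a cell. The study's design text gives 2183 libraries with a median of 251353 mapped reads, and the table holds 2208 wells. The difference is 25, the number of mice, and the first well of each mouse was left out, since 19 of these 25 held over 8000 genes.

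Wells were kept if 1000 genes or more reached an FPKM of 1, in 8 groups of mice. The replicate was the mouse, with log2(FPKM + 1) averaged over its cells, which understates the change of low genes. Genes found in at least 10% of the kept cells of at least 3 of the mice entered, 9162 of 23951. A gene rarely found in CK cells could so enter through the 3 CKp25 mice of 2 weeks alone. At 2 weeks the CKp25 mice alone reached this share in Irf7, Ifitm3, Isg15, Mx1, Ifit1, Rsad2, Axl, Plac8 and Cxcl10, among others. Counts over tested genes and over lists can include such genes. All 25 mice were fitted with limma 3.58.1 (trend and robust options, R 4.3.3), with Benjamini-Hochberg adjustment, and Python 3.11.15, pandas 2.3.3 and scipy 1.17.1 did the rest. The fit was tested on simulated data. Doublets were not called.

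The members, the gene lists and the tests were chosen with earlier results of these data known. Named were the 15 largest rises and 10 largest falls without overlap, up to 4 members of a list by p, any called member and defining members that did not pass. Replicate numbers were not taken to pair the mice in the main fit. Most same-numbered pairs deviated together, and mice 3 at 6 weeks did not (correlation -0.13). Alternatives were other cell filters, pseudocount, gene filter, scaling, fit, replicate block and leaving out each mouse. Some genes are not reported here.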

Additional observations from a re-analysis of the deposited data

Results flagged for a closer look

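The genotype difference was tested between times as an interaction in the fit of all 25 mice, and these genes stood out among those whose difference was not the same. At 2 weeks it was larger than at 1 week by 6.75 ± 1.02 for Ifi27l2a (adjusted p = 0.000329), 5.53 ± 0.68 for Lgals3bp, 5.45 ± 0.80 for Ifitm3, 4.71 ± 0.65 for Rtp4 and 4.55 ± 0.48 for Axl. The genotype difference grew in all 5 by selection, since they were picked as its 5 largest increases. It was smaller by -1.25 ± 0.25 for Tipin (adjusted p = 0.00214), -1.22 ± 0.23 for Ahcy (adjusted p = 0.000958), -0.93 ± 0.26 for Snhg3 (adjusted p = 0.0474), -0.89 ± 0.15 for Pbk (adjusted p = 0.00014) and -0.89 ± 0.19 for Ezh2 (adjusted p = 0.00331), on the log2 scale. Of these, Tipin, Pbk and Ezh2 serve replication, mitosis and chromatin of dividing cells, and each had a positive difference at 1 week (1.36 ± 0.18, 1.19 ± 0.11 and 1.16 ± 0.13).

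Against 6 weeks, the difference at 2 weeks was larger by 2.32 ± 0.48 for Prdx4, 1.52 ± 0.25 for Slc2a6 and 0.68 ± 0.14 for Optn (adjusted p = 0.0418, 0.0025 and 0.0418) and smaller, by -1.96 ± 0.36, for H2-Eb1 (adjusted p = 0.028). Prdx4 differed by -0.19 ± 0.33 and Optn by 0.15 ± 0.10 at 6 weeks.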

How the results depend on the processing

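The 3 shares of cells kept their direction under each alternative, and leaving out 1 mouse gave differences of 85.1 to 87.7 points (antiviral), 64.0 to 72.5 (phagocytic) and 26.4 to 34.8 (homeostatic). The 550 genes that rose numbered 174 with the log2 of the mean FPKM and 349 to 642 with 1 mouse left out. The 204 that fell numbered 125 with cells of at least 2000 genes, 329 after quantile normalization, 447 with genes per cell as a covariate, 98 with the centred log2 of the mean FPKM, added after seeing the data, and 94 to 237 with 1 mouse left out. The 122 genes larger than at 1 week numbered 6 with the log2 of the mean FPKM, 55 with it centred, 81 without the trend and robust options and 88 to 135 with 1 mouse left out. The 38 smaller numbered 67 with cells of at least 2000 genes, 62 with no filter, 0 with a filter at 25% of cells, 0 with the log2 of the mean FPKM, 1 with it centred, 19 with only the weeks compared, 16 without those options, 64 with the covariate and 20 to 58 with 1 mouse left out. The 3 genes larger than at 6 weeks numbered 0 or 1 under 8 alternatives, and the 1 gene smaller 0, 2 or 3 under 10, the replicate block included, with 1 to 12 and 0 to 3 when 1 mouse was left out. The cause of these changes was not tested.

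Same-numbered mice had correlations of 0.25, 0.34 and 0.08 at 2 weeks and 0.19, 0.22 and 0.12 at 0 weeks. They were 0.03, 0.12 and 0.26 at 1 week and 0.13, 0.08 and -0.13 at 6 weeks. Mice of different numbers at 2 weeks lay between -0.32 and 0.14. The numbers were not taken to pair the mice in the main fit, since not every pair at 1, 2 and 6 weeks passed 0.1. A batch shared by mice of the same number was not tested. At 0 weeks each mouse correlated best with its own number. At 2 weeks CKp25 mice 1 and 2 correlated best with the CK mouse of their own number and CKp25 mouse 3 with CK mouse 1. With the replicate block 675 genes rose and 286 fell, 149 and 44 genes differed from 1 week and 13 and 3 from 6 weeks. With 3 mice a group the exact test of a share cannot go below p = 0.1. The depth of single libraries is unknown, so low values cannot be told from genes missed.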

Other observations

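Cytosolic ribosomal protein genes, a family chosen by name after their values were seen, were higher in CKp25 microglia. Of 81 genes 78 were tested, 36 rose and 0 fell, with a median of 1.71. Without overlap 66 lay higher, as 13.2% of all tested genes did. Rps20 was at 509, 595 and 632 FPKM in the CKp25 mice, against 326, 272 and 178 FPKM in the CK mice, and rose by 3.02 ± 0.70 (adjusted p = 0.00337). By mouse the median of the family lay 1.72, 1.46 and 1.93 above the CK mean in the CKp25 mice, against -0.03, 0.70 and -0.70 in the CK mice, and CK mouse 2 stood highest of its group. Of the 36 that rose, 18 and 12 passed without CKp25 mouse 1 or 3, 19 and 9 without CK mouse 1 or 3, 13 with no filter on low values, and 2, of which Rps20 was none, with the log2 of the mean FPKM. With that mean centred on the median gene, an alternative added after seeing the data, 53 genes of the family rose. The family median was -0.15, 0.64, 1.71 and 2.40 at 0, 1, 2 and 6 weeks. Many of these genes have processed copies in the genome and are uncertain. Genes that rose were shorter than the others by their median: exonic length, from the GENCODE annotation vM21 on GRCm38 by symbol for 95.3% of the tested genes, had a median of 3145 bases in genes that rose, 5422 in genes that fell and 4737 in the others. Of the 2184 shortest genes 241 rose (11%) and 38 fell (1.74%), and of the 2182 longest 48 rose (2.2%) and 67 fell (3.07%). The part of transcript length in the result was not tested.

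Other genes that rose outside the lists, named after their values were seen, included Tspo, the mitochondrial protein bound by tracers of microglial activation. It was at 165, 191 and 211 FPKM in the CKp25 mice, against 32.4, 72.8 and 50.7 FPKM in the CK mice, and rose by 3.75 ± 0.39 (adjusted p = 2.81e-09). Sdc3, a cell-surface heparan sulfate proteoglycan, was at 50.1, 42.1 and 57.5 FPKM in the CKp25 mice, against 2.09, 7.47 and 0.947 FPKM in the CK mice, and rose by 3.97 ± 0.31 (adjusted p = 8.04e-13). Mif, a cytokine that counters glucocorticoids, Capg, which caps actin filaments, and Hcar2, the niacin receptor, rose by 3.59 ± 0.41, 3.02 ± 0.38 and 2.25 ± 0.27 (adjusted p = 1.96e-08, 1.5e-07 and 3.31e-08). Il2rg, the common cytokine receptor chain, and Csf2ra, a chain of the receptor for granulocyte-macrophage colony-stimulating factor, rose by 2.27 ± 0.22 and 2.18 ± 0.45 (adjusted p = 2.29e-10 and 0.000933). Among genes that fell, Slc40a1, the iron exporter ferroportin, was at 19.1, 14.7 and 18.5 FPKM in the CKp25 mice, against 60.4, 89.9 and 51.8 FPKM in the CK mice, and fell by 2.14 ± 0.47 on the log2 scale (adjusted p = 0.00173). Elmo1, which acts in engulfment, Dusp6, an inhibitor of the ERK kinases, and Txnip, which binds thioredoxin, fell by 2.18 ± 0.48, 2.42 ± 0.61 and 1.96 ± 0.51 on that scale (adjusted p = 0.00188, 0.00723 and 0.00885).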
